A study of Mus musculus with 9 samples.

Results

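Retinas of mice with oxygen-induced retinopathy (OIR) that had received a hydrogel were compared with retinas of Normoxic mice, to describe which genes still differed after the hydrogel and which were back at the Normoxic level. The comparison used the 3 Gel and 3 Normoxic libraries, 6 of the 9 libraries of the series, and the 17362 of 26683 listed genes that passed a filter on low counts. Normoxic mice were raised in room air. Gel libraries came from OIR mice with PCC1/PHCF hydrogel injected into the vitreous, and PBS libraries, also 3, from OIR mice injected with phosphate-buffered saline instead. PCC1 is procyanidin C1, a polyphenol found in grape seed, and what PHCF stands for is not given in the labels. Injection was on postnatal day 15 and all retinas were collected on postnatal day 17, so the Gel retinas show the state 2 days after treatment. Whether Normoxic mice were injected is not given in the labels, and no group received the hydrogel without PCC1. Gel and Normoxic libraries therefore differ in oxygen history, in hydrogel and drug, and possibly in injection, and these cannot be told apart. Neither the mouse strain nor pooling of retinas is given. The labels do not say that replicates are separate animals, so p-values here measure only the spread between these samples, which may be technical.

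In OIR, mouse pups are kept in high oxygen while their retinal vessels are still growing, and the central capillaries close. On return to room air the vessel-poor retina becomes short of oxygen, releases VEGF and related signals, and vessels regrow, partly as tufts into the vitreous. Müller glia, the support cells that span the retina, respond to such injury by raising intermediate filament and acute phase genes, and microglia, its resident macrophages, become activated. Photoreceptors, bipolar, amacrine, horizontal and ganglion cells are the neurons of the same tissue.

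Total counts ran from 29324142 to 35663470 per library. The retina label was checked with Nr2e3, a nuclear receptor specific to photoreceptors, which held 620 CPM in Normoxic and 1023 CPM in Gel on average, where CPM is the count per 1e+06 counts of the library. On the leading principal component (38.6% of the variance) Normoxic libraries lay from -43.8 to -35.8, Gel 1, 2 and 3 (replicates 1 to 3) at -13.3, 18.3 and 20, and PBS 1, 2 and 3 at 21.5, 11.7 and 58.3. Of the injected libraries, Gel 1 stood nearest to Normoxic and PBS 3 farthest from it. The share of counts on ribosomal protein genes was 2.68% in PBS 3 and between 1.08% and 1.66% elsewhere. PBS libraries enter the Gel versus Normoxic test through the filter, the scaling and the estimate of the spread. Across genes, the Spearman correlation of gene length with the deviation of a library from its group mean was 0.32, -0.29 and -0.20 in Gel 1, 2 and 3, 0.32, 0.41 and -0.49 in PBS 1, 2 and 3, and between -0.045 and 0.029 in Normoxic (genes are not independent replicates). With this length trend removed, the calls described next numbered 413 in place of 245. Retinal RNA was measured in bulk, so fewer cells of a type and less RNA per cell cannot be told apart.

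Hydrogel-treated retinas still differed from Normoxic retinas in 245 genes, 1.41% of those tested. Of these, 195 were higher in Gel (1.12%) and 50 lower (0.288%), by the edgeR quasi-likelihood test with a Benjamini-Hochberg adjusted p under 0.05 over all genes. These are the genes referred to as called. The median log2 fold change was 1.41 among the higher and -0.81 among the lower genes. A difference of at least 2-fold was reached by 156 genes, of which 14 were lower. At an unadjusted p under 0.05 there were 2298 of the 17362 tested genes. That share is the background for the counts of list members at the same threshold below. Gel and Normoxic CPM did not overlap in 4169 of the tested genes (24.0%), among them all 245 called, so lack of overlap alone was common. Individual Normoxic libraries weighed heavily on the count, which was 52, 47 and 98 without Normoxic 1, 2 and 3, 91 and 95 without Gel 2 and Gel 3, and 735 without PBS 3. The direction of the 245 genes was the same in each of these fits, and 38 were called in every fit with another tool, scaling, filter or set of groups and without any 1 library. Of those 38, 35 were higher and 3 lower in Gel.

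The same test called 1101 genes in PBS versus Normoxic (6.34% of those tested), 748 higher and 353 lower. Both comparisons share the Normoxic libraries, so their values are set side by side only as levels. Of the 1101, 216 were also called in Gel, 178 higher and 38 lower. Another 139 were not called in Gel and had a 95% interval of the Gel versus Normoxic fold change that lay wholly within 1.5-fold in either direction. Those 139, 35 higher and 104 lower in PBS, are described here as back at the Normoxic level. This means near it, not equal to it, and the interval of some of them excluded 0. The other 746, 535 higher and 211 lower in PBS, met neither criterion: their Gel level was not called different and was not shown to be near Normoxic. Their median log2 difference was 1.44 in PBS and 0.79 in Gel among the higher genes, and -0.72 and -0.46 among the lower. From the estimate to either end, the interval had a median width of 0.52 (log2) for them and 0.24 for the 139, so precision is part of what separates the sets. In Gel versus PBS, edgeR called 0 genes (0% of those tested), 961 had an unadjusted p under 0.05, and the smallest adjusted p was 0.117. DESeq2 called 62 and limma-voom 0 there, and edgeR called 2, 12 and 6 without PBS 1, 2 and 3. A lower value in Gel than in PBS is therefore a description in what follows.

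Of the gene lists examined, glial reactivity genes had the highest median in Gel. Of 25 measured, 12 were called higher in Gel and 0 lower, with a median log2 fold change of 1.72, where the median over all tested genes was 0.000699. The same 25 had a median of 2.15 in PBS. Gfap, the intermediate filament of astrocytes and reactive Müller cells, read 17.2, 27.5 and 20.2 CPM in Normoxic 1 to 3, 89.1, 125 and 104 CPM in Gel and 367, 200 and 231 CPM in PBS. Every Gel library lay above every Normoxic library and below every PBS library. Gel exceeded Normoxic 4.90-fold (log2 fold change 2.29 ± 0.25, SE, edgeR adjusted p = 0.00187). Serpina3n, a serine protease inhibitor secreted by reactive glia, stood in the same order at 2.28, 3.01 and 1.91 CPM in Normoxic, 19.8, 20.6 and 23.8 CPM in Gel and 120, 41.5 and 47 CPM in PBS (Gel versus Normoxic log2 fold change 3.15 ± 0.39, adjusted p = 0.00403). The metallothionein Mt2, which binds zinc and copper, read 14.3, 12.2 and 12.4 CPM in Normoxic and 62.7, 72.6 and 89.1 CPM in Gel, 5.77-fold higher (adjusted p = 0.0005), and its neighbour Mt1 rose as well (log2 fold change 1.51).

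Of the 25 glial reactivity genes, 22 stood lower in Gel than in PBS, with a median Gel minus PBS log2 difference of -0.76. Over all tested genes that median was -0.0118. Lcn2 and Steap4 were exceptions and stood higher in Gel. Lcn2, the iron-binding acute phase protein lipocalin 2, read 2.48, 3.81 and 2.99 CPM in Normoxic, 21.1, 13.6 and 12.1 CPM in PBS and 36, 21.3 and 59 CPM in Gel. Each Gel value was above each PBS value. The excess over Normoxic was 12.5-fold in Gel (log2 3.64 ± 0.37, edgeR adjusted p = 0.00138) and 5.03-fold in PBS. The difference between Gel and PBS was not called (log2 1.31, adjusted p = 0.576). Steap4, a metalloreductase, stood at 0.335, 0.215 and 0.329 CPM in Normoxic, 0.573, 0.728 and 0.819 CPM in PBS and 3.23, 1.8 and 6.69 CPM in Gel. It was called in Gel (log2 fold change 3.72 ± 0.51, adjusted p = 0.00651) and not in PBS (1.27, adjusted p = 0.199), and Gel versus PBS was not called (2.46, adjusted p = 0.303). The fold change of Steap4 was 3.09 without Gel 3, and its call ended without Normoxic 2 (adjusted p = 0.0512, range over all alternatives 3.69e-10 to 0.0512).

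Edn2, the vasoactive peptide endothelin 2 that stressed photoreceptors release, had the largest fold change among called genes whose Gel mean reached 1 CPM. Normoxic libraries held 0.067, 0.215 and 0.23 CPM, Gel 13.2, 4.54 and 8.63 CPM, and PBS 55.7, 28.3 and 9.53 CPM. Gel and Normoxic values did not overlap, whereas Gel 1 exceeded PBS 3 (Gel versus Normoxic log2 5.64 ± 0.83, edgeR adjusted p = 0.00903). Fgf2, a growth factor that protects photoreceptors, rose to 53.4, 41.6 and 48.9 CPM in Gel from 14.9, 14.1 and 12.7 CPM in Normoxic (log2 1.79, adjusted p = 0.00785). An antisense transcript, Fgf2os, overlaps Fgf2, and without stated strandedness the reads of the pair cannot be assigned between them. Both the Edn2 and Fgf2 calls ended without Normoxic 1 or without Normoxic 2 (adjusted p up to 0.0721 and 0.054), and that of Edn2 also in limma-voom (0.212, range over all alternatives 2.28e-09 to 0.212). Of the cytokine signalling genes upstream of glial activation, the receptor Osmr was called (1.29), though not without Gel 2, Gel 3 or any 1 Normoxic library (adjusted p up to 0.103), while Stat3 (0.71, adjusted p = 0.13) and the feedback inhibitor Socs3 (0.79, adjusted p = 0.482) were not. The filament gene Vim, which Müller cells express at rest, read 193, 222 and 196 CPM in Normoxic and 241, 344 and 340 CPM in Gel without a call (0.60, adjusted p = 0.222).

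Müller glia homeostatic markers showed no such difference. Of 19 measured, 0 were called in Gel by edgeR, 7 had an unadjusted p under 0.05, and DESeq2 called 1 higher and 2 lower and limma-voom 0. The median was -0.05 and 12 of the 19 had their interval within 1.5-fold of Normoxic, where 48.5% of all tested genes did. Aqp4, the water channel of Müller cell endfeet, was at 85.8, 79.7 and 75.7 CPM in Normoxic, 57.9, 65.8 and 67.6 CPM in Gel and 49.3, 54 and 49 CPM in PBS. Gel values lay between the other groups with no overlap. The gene counts among those back at the Normoxic level by the 1.5-fold criterion (Gel versus Normoxic -0.33, interval -0.56 to -0.11), and DESeq2 called it lower in Gel (adjusted p = 0.0422).

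**Figure D1:**
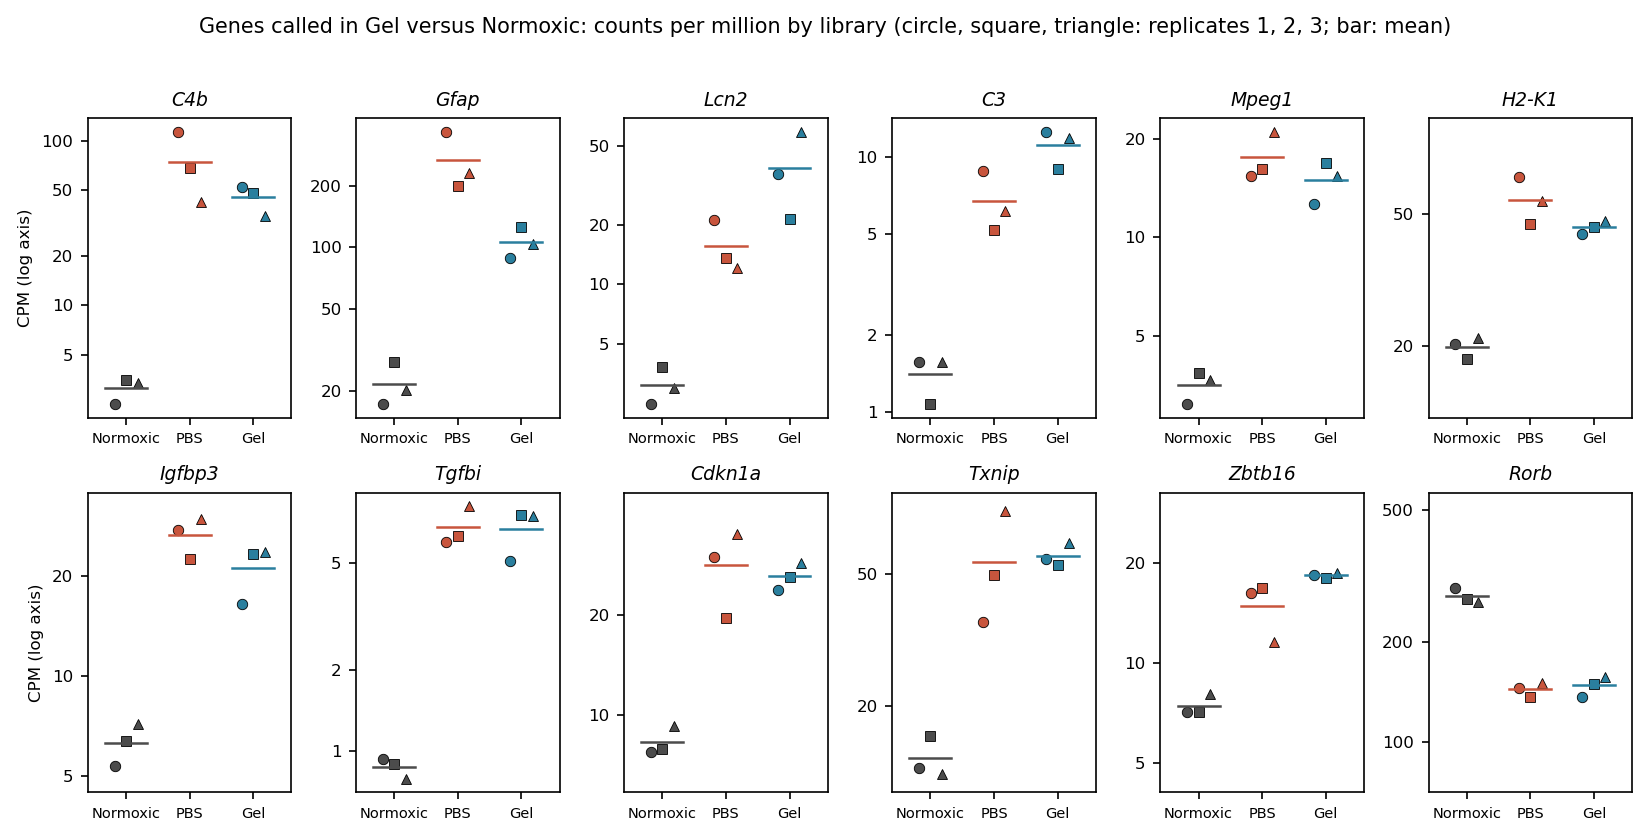
CPM on a log axis (y) for 12 genes called in Gel versus Normoxic, by group (x), 1 point per library and a bar at the group mean. In all 12 panels the Gel points lie apart from the Normoxic points, as in all 245 called genes, 11 above and Rorb below. Lcn2 and C3 are higher in Gel than in PBS, and Gfap is lower.

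Complement and acute phase genes stayed high. Of 18 measured, 10 were called higher in Gel and 0 lower (median log2 fold change 1.46, and 2.18 in PBS), though 4 of the 10 (C4b, Lcn2, Serpina3n and A2m) also belong to the glial list. C4b, a complement component of the classical pathway, rose 14.4-fold from 2.51, 3.51 and 3.38 CPM in Normoxic to 52.4, 48.2 and 35 CPM in Gel (log2 3.85 ± 0.34, edgeR adjusted p = 0.0005). It read 114, 68.1 and 42.5 CPM in PBS, overlapping Gel. Its close copy C4a may share reads with it. C3, the component where all complement pathways meet, read 1.57, 1.08 and 1.58 CPM in Normoxic, 8.81, 5.16 and 6.14 CPM in PBS and 12.5, 8.9 and 11.8 CPM in Gel. Gel C3 lay above every PBS value and 7.84-fold above Normoxic (log2 2.97 ± 0.26, adjusted p = 0.0005), with no call between Gel and PBS (0.72, adjusted p = 0.65). The subunits of C1q, which starts the classical pathway, were called too (C1qa 1.71, C1qb 1.59, C1qc 1.50), but each call ended without Normoxic 1, without Normoxic 2 or without Gel 2 (adjusted p up to 0.0995).

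Microglia and macrophage markers were called higher in 12 of 28, with a median log2 fold change of 1.23 in Gel and 1.71 in PBS. Csf1r, the growth factor receptor that microglia need to survive, read 14.3, 13.1 and 15.3 CPM in Normoxic, 33.3, 36.2 and 34.8 CPM in Gel and 28.6, 31.6 and 37.7 CPM in PBS. Gel and PBS overlapped, and both stood apart from Normoxic (Gel 2.44-fold, log2 1.29 ± 0.13, edgeR adjusted p = 0.00101). Mpeg1, a pore-forming protein of macrophages, rose 4.26-fold from 3.08, 3.85 and 3.65 CPM to 12.7, 16.9 and 15.4 CPM (log2 2.09 ± 0.18, adjusted p = 0.000493). The genes of phagocytic macrophages Lyz2 (2.74), Cd74 (2.17), Fcgr3 (1.94) and Trem2 (1.54) were called as well. Cx3cr1, which marks microglia at rest, was called (0.89, adjusted p = 0.0276), though not without Gel 2, Gel 3 or any 1 Normoxic library (up to 0.15). P2ry12 and Tmem119, also markers of that state, were not called (0.50, adjusted p = 0.592, and 0.51, adjusted p = 0.528). Without Normoxic 1 or Normoxic 2 only 2 of the 28 markers were called, and without Normoxic 3, Gel 2 or Gel 3 there were 8, 6 and 6. Csf1r and Mpeg1 kept their call in every alternative.

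Interferon response genes had no call in Gel. Of 25 measured, edgeR called 0 in Gel versus Normoxic, 18 had an unadjusted p under 0.05, and the median log2 fold change was 0.86. In PBS versus Normoxic 23 of the same 25 were called higher, with a median of 1.60. DESeq2 called 9 of them in Gel, limma-voom 0, and edgeR 6 without the filter on low counts and 5 without PBS 3. Ifit1, an RNA-binding antiviral protein, read 6.93, 5.44 and 2.76 CPM in Normoxic, 26, 21.6 and 18 CPM in PBS and 7.33, 14.6 and 11.9 CPM in Gel (Gel versus Normoxic log2 1.16 ± 0.32, adjusted p = 0.121, PBS 2.11, adjusted p = 0.00402). Isg15, a ubiquitin-like modifier, read 5.76, 6.37 and 1.35 CPM in Normoxic, 18.9, 15.2 and 25.6 CPM in PBS and 7.53, 15 and 11 CPM in Gel (Gel 1.31, adjusted p = 0.204). In both genes all 3 Gel values lay between the other groups, with Gel 1 the lowest Gel value and Normoxic 3 the lowest of all. Normoxic 3 was low over the whole list, at a mean log2 CPM of -0.66 from the group mean, against 0.38 and 0.28 in Normoxic 1 and 2. Gel 1, 2 and 3 stood at 0.51, 1.16 and 0.91 and PBS at 1.74, 1.46 and 1.45. Without Normoxic 3 edgeR still called 0 of the 25 in Gel, and the median was 0.61. Without Gel 1 it called 1, with a median of 1.11. The share of this spread in the missing call was not tested.

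Genes that present antigen on MHC class I, which interferons also regulate, were called in part. Of 16 measured, 4 were called higher in Gel (B2m, H2-K1, H2-D1 and H2-Q4) and 14 in PBS, with medians of 0.81 and 1.25. B2m, the light chain of class I molecules, rose 2.71-fold from 17.4, 16.3 and 18.8 CPM to 38.4, 53 and 51 CPM (log2 1.44 ± 0.18, edgeR adjusted p = 0.00365), below the 65.1, 59.8 and 91.3 CPM of PBS. H2-K1, a heavy chain, rose 2.29-fold from 20.3, 18.2 and 21.1 CPM to 43.3, 45.7 and 47.5 CPM (adjusted p = 0.00187). Class I heavy chain genes are near-copies of each other, so reads may be split between them. The calls of H2-D1 and H2-Q4 ended without Gel 2, Normoxic 1 or Normoxic 2 (adjusted p up to 0.104), and those of B2m and H2-K1 held in all alternatives.

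The promoters of these genes were searched for motifs. In RefSeq promoters of mouse build GRCm38.p6, 250 bases before to 50 after the gene start, the motif GAAANNGAA, the core of the interferon-stimulated response element, was searched on both strands with overlaps allowed. It occurred in 9.76% of 27025 genes, in 12 of the 20 matched interferon genes (60%) and in 4 of 14 matched class I genes (28.6%). The motif TTCNNNGAA, the palindrome that STAT proteins recognise, occurred in 9.55% of all genes and in 3 of 22 matched glial reactivity genes (13.6%), Gfap, Socs3 and Steap4. It also occurred in 5 of 20 interferon genes (25%), 2 of 14 class I genes (14.3%) and 1 of 10 complement genes (10%). A match is a description of the letters, not of a site in use. Printed are Ifit1 and Isg15, whose difference had no call in Gel, B2m, which was still called, and the STAT-motif glial genes Gfap and Steap4, both called in Gel, with the matched stretches in capitals. The Ifit1 promoter lies at chr19:34640639-34640938 (plus strand), Isg15 at chr4:156200769-156201068 (minus), B2m at chr2:122147437-122147736 (plus), Gfap at chr11:102897151-102897450 (minus) and Steap4 at chr5:7960222-7960521 (plus).
Ifit1: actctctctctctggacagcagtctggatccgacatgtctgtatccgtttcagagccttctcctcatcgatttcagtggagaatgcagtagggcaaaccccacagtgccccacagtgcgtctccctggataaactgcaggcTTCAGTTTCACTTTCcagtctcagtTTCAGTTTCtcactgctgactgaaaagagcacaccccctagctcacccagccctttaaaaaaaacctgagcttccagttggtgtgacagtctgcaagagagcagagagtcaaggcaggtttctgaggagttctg
Isg15: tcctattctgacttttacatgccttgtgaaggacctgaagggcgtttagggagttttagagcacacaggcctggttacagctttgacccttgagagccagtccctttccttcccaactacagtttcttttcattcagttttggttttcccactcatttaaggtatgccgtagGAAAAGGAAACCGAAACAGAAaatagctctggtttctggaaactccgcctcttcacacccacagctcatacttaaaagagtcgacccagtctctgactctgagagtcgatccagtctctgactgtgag
B2m: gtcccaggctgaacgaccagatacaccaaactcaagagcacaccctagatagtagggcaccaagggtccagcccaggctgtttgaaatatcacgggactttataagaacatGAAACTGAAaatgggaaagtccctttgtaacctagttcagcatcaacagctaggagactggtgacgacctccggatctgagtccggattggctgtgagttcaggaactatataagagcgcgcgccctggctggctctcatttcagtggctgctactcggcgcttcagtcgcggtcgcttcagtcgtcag
Gfap: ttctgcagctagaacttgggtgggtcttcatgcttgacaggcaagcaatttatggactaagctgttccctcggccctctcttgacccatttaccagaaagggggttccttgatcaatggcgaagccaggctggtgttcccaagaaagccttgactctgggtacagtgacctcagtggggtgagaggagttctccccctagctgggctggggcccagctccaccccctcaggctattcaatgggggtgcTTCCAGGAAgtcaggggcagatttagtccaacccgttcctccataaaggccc
Steap4: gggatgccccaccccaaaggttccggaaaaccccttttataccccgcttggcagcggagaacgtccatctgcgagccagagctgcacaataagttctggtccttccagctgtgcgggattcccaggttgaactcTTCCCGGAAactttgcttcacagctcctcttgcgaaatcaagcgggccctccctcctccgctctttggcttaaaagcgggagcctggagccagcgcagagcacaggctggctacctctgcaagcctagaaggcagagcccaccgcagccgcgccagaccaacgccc
Ifit1 and Isg15 each hold 3 matches, those of Isg15 on the strand of the gene and those of Ifit1 on the other. B2m holds 1. The Gfap and Steap4 stretches read the same motif on both strands.

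**Figure D2:**
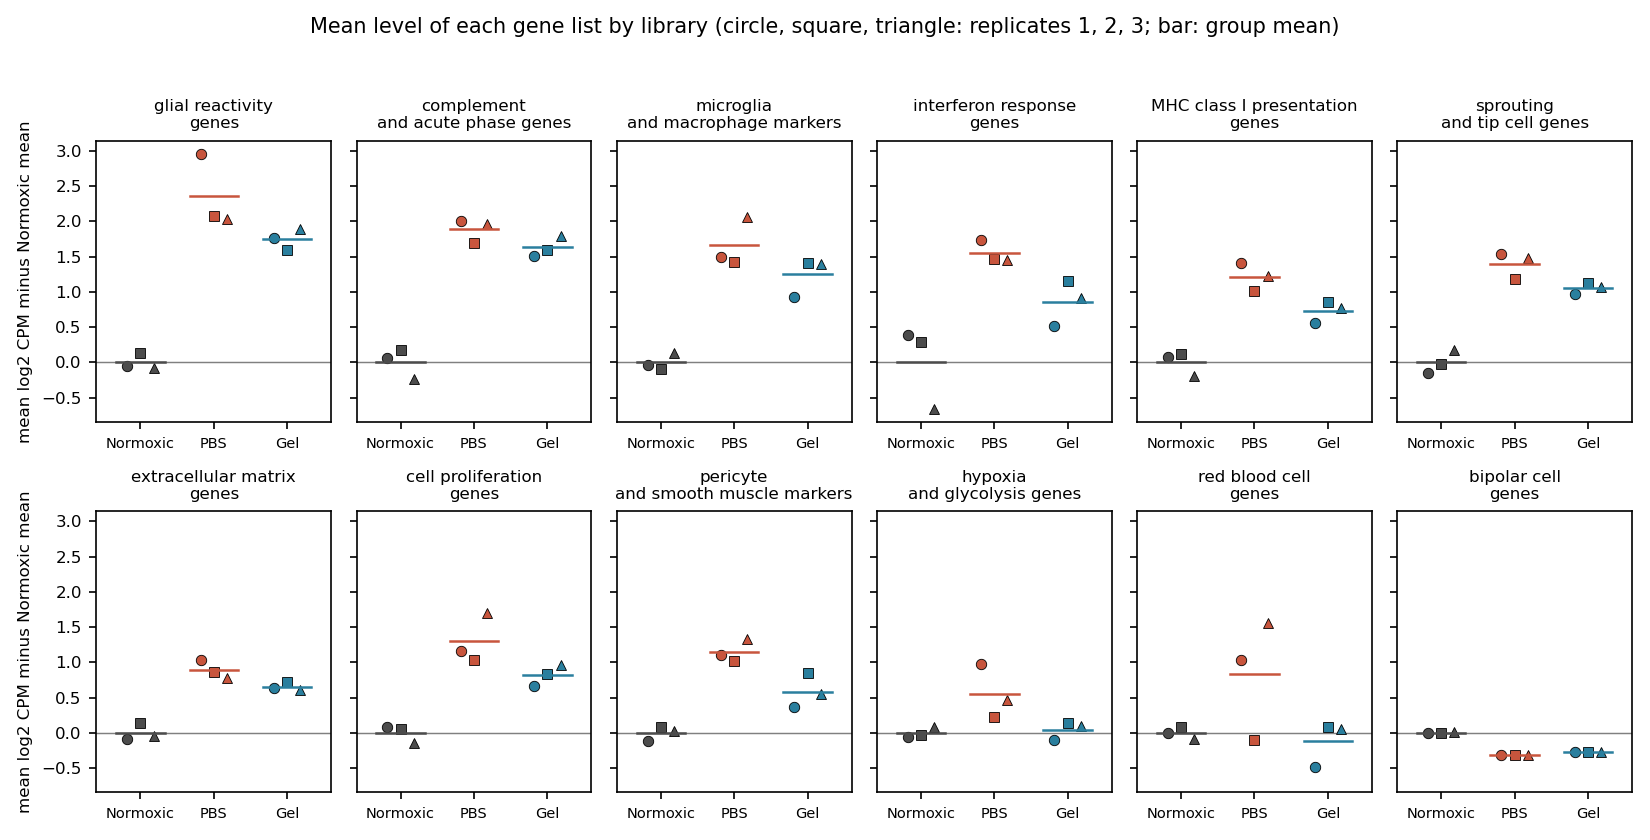
Mean log2 CPM of the measured members of 12 gene lists, minus the Normoxic mean (y), by group (x), 1 point per library and a bar at the group mean. Glial, complement and tip cell lists stay far above 0 in every Gel library, the hypoxia list lies within 0.14 of 0 in every Gel library, and the bipolar list sits at about -0.27 in all 3 Gel libraries.

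Of 27 sprouting and tip cell genes, which mark the leading cells of growing vessels, 11 were called higher in Gel. In PBS 17 of the 27 were called higher and 1 lower. The median log2 fold change was 1.05 in Gel and 1.05 in PBS. Gene by gene, however, 21 of the 27 stood lower in Gel than in PBS, with a median Gel minus PBS log2 difference of -0.28. Igfbp3, a growth factor binding protein, rose 3.37-fold from 5.33, 6.34 and 7.13 CPM to 16.4, 23.3 and 23.6 CPM, against 27.5, 22.4 and 29.7 CPM in PBS (Gel log2 1.75 ± 0.18, edgeR adjusted p = 0.00151). Esm1, a tip cell proteoglycan, was counted 1, 0 and 0 times in Normoxic, 35, 39 and 20 times in Gel and 134, 76 and 172 in PBS. The ratio of summed counts, scaled to library totals, was 87.7 in Gel (95% interval 15.4 to 3500, exact, counting error only, edgeR adjusted p = 0.00462). Gel values of Esm1 were all below PBS values and all above Normoxic. Angpt2, the ligand that loosens pericytes from endothelium, read 4.32, 4.98 and 5.78 CPM in Normoxic, 9.68, 10.8 and 10.8 CPM in Gel and 27.2, 14.7 and 21.9 CPM in PBS (Gel log2 1.05, adjusted p = 0.0405). Basement membrane genes were in this set, with Nid2 at 8.11, 10.5 and 7.29 CPM in Normoxic and 19.9, 18.2 and 19.2 CPM in Gel (1.14, adjusted p = 0.00462), and Col4a1 (1.24) and Col4a2 (0.84). Igfbp3, Esm1 and Nid2 kept their call in every alternative. Angpt2 lost its call without any 1 Gel or Normoxic library (adjusted p up to 0.185), and the number of list members called was 4, 3, 8, 4 and 6 without Normoxic 1, 2, 3, Gel 2 and Gel 3.

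Of 26 general endothelial markers, some also on the tip cell list, 4 were called higher in Gel (Tie1 1.21, Vwf 0.94, Cdh5 0.86 and Eng 0.69), with a median of 0.67. An unadjusted p under 0.05 was reached by 18 of these 26 and by 19 of the 27 tip cell genes. EdgeR called 0 of the 26 without Normoxic 2, Gel 2 or Gel 3, where DESeq2 on all libraries called 10 and limma-voom 3. Pecam1, an adhesion molecule of all endothelium, read 14.8, 15.8 and 16.9 CPM in Normoxic and 24.7, 28.4 and 29.9 CPM in Gel, without overlap and just short of a call (log2 0.81, edgeR adjusted p = 0.0503). Vegfa, the growth factor that oxygen shortage raises, was at 221, 262 and 283 CPM in Normoxic, 335, 254 and 263 CPM in Gel and 655, 368 and 300 CPM in PBS. Gel and Normoxic Vegfa overlapped (0.15, adjusted p = 0.827). The VEGF receptor Kdr was within 1.5-fold of Normoxic in Gel (-0.27, interval -0.52 to -0.02) and called lower in PBS (-0.48, adjusted p = 0.0313). Of 19 blood-retina barrier and Norrin pathway genes, edgeR called 0 in Gel (3 at an unadjusted p under 0.05), and Cldn5, a tight junction protein, read 30, 35.2 and 39.8 CPM in Normoxic and 44, 71.5 and 59.1 CPM in Gel (0.73, adjusted p = 0.286).

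Pericyte and smooth muscle markers were not called in Gel. Of 15 measured, 7 were called higher in PBS versus Normoxic and 0 in Gel versus Normoxic by edgeR, where 8 had an unadjusted p under 0.05, DESeq2 called 7 and limma-voom 0. The list median was 0.58 in Gel. Tagln, an actin-bundling protein of contractile cells, read 2.61, 3.78 and 3.19 CPM in Normoxic, 17.7, 10.3 and 18.2 CPM in PBS and 3.5, 5.51 and 3.92 CPM in Gel. Gel and Normoxic overlapped and lay far under PBS (Gel versus Normoxic log2 0.43, edgeR adjusted p = 0.539, Gel versus PBS -1.83, adjusted p = 0.117). Acta2, smooth muscle actin, read 2.71, 3.23 and 2.99 CPM in Normoxic, 36.2, 22 and 38.3 CPM in PBS and 4.57, 10.4 and 8.01 CPM in Gel. Its Gel values stood between both groups, short of a call from Normoxic (1.37 ± 0.30, adjusted p = 0.0537, range over alternatives 0.000506 to 0.209) and from PBS (-2.06, adjusted p = 0.117). Myl9, the myosin light chain of smooth muscle, read 8.97, 14.7 and 15.1 CPM in Gel around the Normoxic 11.2, 12.3 and 11.8 CPM (0.13, adjusted p = 0.86). None of the 3 met the 1.5-fold criterion: the intervals of Tagln and Myl9 reached past it, and that of Acta2 lay wholly beyond it.

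Extracellular matrix genes beyond the basement membrane stayed high in Gel, with 10 of 38 called (median log2 fold change 0.55, and 0.80 in PBS). Tgfbi, a secreted matrix protein under TGF-beta control, rose 7.69-fold from 0.938, 0.892 and 0.788 CPM to 5.11, 7.56 and 7.51 CPM, next to 6.01, 6.35 and 8.16 CPM in PBS (log2 2.94 ± 0.24, edgeR adjusted p = 0.00041). Gel and PBS values of Tgfbi overlapped, and both lay above Normoxic. The proteoglycan Bgn (1.51) and the basement membrane linker Nid1 (1.24) were called too, and these 3 kept their calls in every alternative. Of 25 cell proliferation genes, 3 were called (Mki67, Top2a and Ccnb1), with a median of 0.61. Mki67, the Ki-67 antigen, stood at 0.402, 0.584 and 0.263 CPM in Normoxic, 1.38, 2.51 and 1.5 CPM in Gel and 3.82, 3.57 and 4.59 CPM in PBS (Gel log2 2.10, adjusted p = 0.0197), and its call ended without Gel 2 or any 1 Normoxic library (adjusted p up to 0.108).

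Of 32 oxygen-sensing and glycolysis genes, 1 was called higher in Gel and 0 lower, and 9 had an unadjusted p under 0.05. In PBS 5 were called higher and 0 lower, with a median of 0.26. Of those 5, 1 was also called in Gel, 4 met neither criterion and 0 were back at the Normoxic level. Compared with PBS, 31 of the 32 stood lower in Gel. In Gel the median log2 fold change was -0.08, and 14 (43.8%) had their interval within 1.5-fold, where 48.5% of all tested genes did. The fit of only the 2 groups compared called 2 higher and 4 lower, and 3 and 2 were called lower without PBS 1 and PBS 3, in each case with the glycolytic enzyme Hk2 (-0.98, edgeR adjusted p = 0.202 over all groups, range over alternatives 0.00171 to 0.509). The enzymes Ldha (-0.09, edgeR adjusted p = 0.866) and Pgk1 (-0.09, adjusted p = 0.879) and the glucose transporter Slc2a1 (-0.20, adjusted p = 0.657) were not called. Ndufa4l2, a HIF-1 target that lowers mitochondrial complex I activity, was the exception at 4.92, 5.97 and 7.85 CPM in Normoxic, 35.4, 39.3 and 39.9 CPM in Gel and 105, 63.3 and 94 CPM in PBS. Gel Ndufa4l2 stood 6.11-fold above Normoxic (log2 2.61 ± 0.21, adjusted p = 0.00041), without overlap with either group. It is also a marker of pericytes, and whether its excess came from those cells was not tested.

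Arrdc2, an alpha-arrestin, had the smallest p of all genes and read 11.7, 14.4 and 12.1 CPM in Normoxic, 39.2, 45 and 45 CPM in PBS and 61.2, 47.7 and 54.3 CPM in Gel, 4.27-fold above Normoxic (log2 2.09 ± 0.13, edgeR adjusted p = 0.00013). Its relatives Txnip, which binds thioredoxin and limits glucose uptake, and Arrdc3 were called as well (2.03, adjusted p = 0.00305, and 1.28, adjusted p = 0.00273). Txnip read 13, 16.3 and 12.5 CPM in Normoxic, 55.4, 53.1 and 61.9 CPM in Gel and 35.8, 49.6 and 77.2 CPM in PBS. Of 15 glucocorticoid-responsive genes, 6 were called higher and 1 lower in Gel, with a median of 0.37. Fkbp5, a chaperone of the glucocorticoid receptor, rose 2.05-fold from 36.2, 36.7 and 35.4 CPM to 68.9, 70.2 and 83 CPM (1.04 ± 0.12, adjusted p = 0.00278), and PBS lay at 61.8, 71.7 and 80.1 CPM. Zbtb16, a zinc finger repressor, rose from 7.1, 7.11 and 8.08 CPM to 18.4, 18.1 and 18.7 CPM (1.31 ± 0.16, adjusted p = 0.00307). Others on that list have further inducers, Mt1 and Mt2 among them, and Dusp1, a phosphatase, was the lower one (-1.17).

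Senescence and cell cycle inhibitor genes, which the drug bears on by the title of the series, were called higher in 3 of 17 in Gel (Igfbp3 and Cdkn1a among them) and in 8 of 17 in PBS, with medians of 0.27 and 0.45. Cdkn1a, the inhibitor p21, read 7.74, 7.87 and 9.27 CPM in Normoxic, 23.8, 26.1 and 28.7 CPM in Gel and 29.8, 19.6 and 35.1 CPM in PBS. Gel values fell inside the PBS range and stood 3.16-fold above Normoxic (log2 1.66 ± 0.20, edgeR adjusted p = 0.00306). Cdkn2a, which encodes p16 and p19, was too low to pass the filter, with 1, 1 and 1 counts in Normoxic, 1, 4 and 3 in Gel and 19, 2 and 16 in PBS. The scaled count ratio of Gel to Normoxic was 2.49 (95% interval 0.597 to 14.6, exact, counting error only), so no difference was detectable at this depth. Of 20 p53 target genes, 3 were called higher (Cdkn1a, Gadd45a 0.55 and Phlda3 0.97). The calls of Gadd45a and Phlda3 ended without Gel 2, Gel 3 or any 1 Normoxic library (adjusted p up to 0.124 and 0.223), which left 1 p53 target called in each case, and that of Phlda3 also in limma-voom. Of 21 genes of apoptosis, pyroptosis and necroptosis 0 passed in edgeR, and 8 had an unadjusted p under 0.05. Of 19 unfolded protein and integrated stress genes 2 were called, the transcription factors Atf3 (1.81, adjusted p = 0.00651) and Ddit3 (0.67, adjusted p = 0.0466), the latter ended by leaving out any of 7 libraries.

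**Figure D3:**
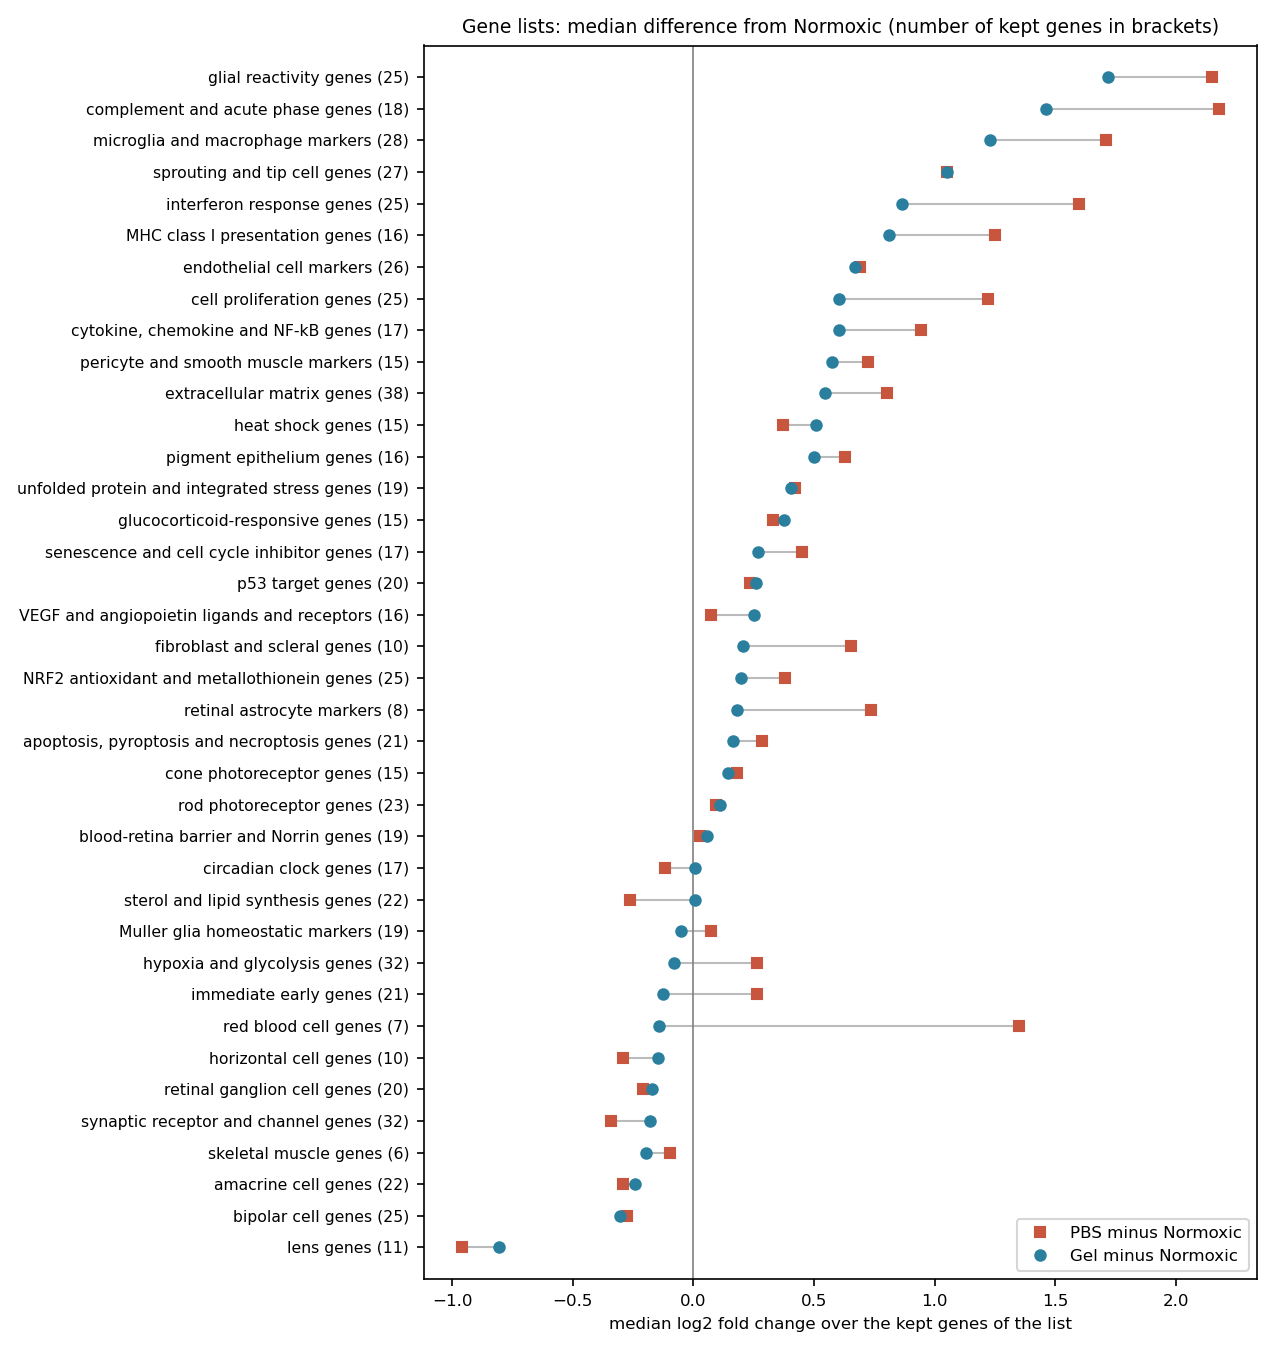
Median log2 fold change against Normoxic (x) over the measured members of each gene list (y, number of members in brackets), in Gel (circles) and PBS (squares), which share the Normoxic libraries. Glial, complement and microglial lists have the highest Gel medians, from 1.23 to 1.72, while hypoxia, sterol, rod and cone lists lie within 0.15 of 0.

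Genes lower than Normoxic were fewer and their differences smaller. Rorb, a nuclear receptor needed for photoreceptor and amacrine cell differentiation, read 292, 270 and 265 CPM in Normoxic, 137, 150 and 158 CPM in Gel and 146, 137 and 151 CPM in PBS. Gel and PBS overlapped, and Gel was 1.86-fold below Normoxic (log2 -0.89 ± 0.10, edgeR adjusted p = 0.00236). The predicted gene A930033H14Rik was lower still, at 45.5, 43.4 and 48.2 CPM in Normoxic and 11.5, 15.8 and 11.8 CPM in Gel (-1.81 ± 0.16, adjusted p = 0.000492). These and the non-coding Gm29695 were the 3 lower genes called in every alternative. P2rx2, a channel opened by extracellular ATP, read 5.76, 4.8 and 4.99 CPM in Normoxic, 1.01, 2.54 and 1.62 CPM in Gel and 1.18, 0.629 and 0.819 CPM in PBS (Gel -1.58, adjusted p = 0.0454). The immediate early transcription factor Fos (-1.65) and the clock gene Per2 (-0.94) were called lower. The actin crosslinker Actn2 (-1.78) had the largest decrease among called genes other than gene models whose Normoxic mean reached 1 CPM. Each of the calls of P2rx2, Fos, Per2 and Actn2 ended without Normoxic 1 or without Normoxic 2 (adjusted p up to 0.182).

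The lists of bipolar, amacrine, ganglion and horizontal cell genes had medians under 0 in Gel. Of 25 bipolar cell genes, 1 was called lower in Gel (Isl1) and 10 had an unadjusted p under 0.05. The median was -0.31 in Gel and -0.28 in PBS, and the list mean was -0.27, -0.27 and -0.27 in the Gel libraries and -0.32, -0.32 and -0.32 in PBS. Isl1, a homeobox factor of ON bipolar, amacrine and ganglion cells, read 125, 120 and 115 CPM in Normoxic and 77.6, 74.4 and 88.6 CPM in Gel (log2 -0.58 ± 0.10, edgeR adjusted p = 0.0232), a call that ended without Gel 1, Gel 2 or any 1 Normoxic library (adjusted p up to 0.131). Of 22 amacrine cell genes edgeR called 0 in Gel (8 at an unadjusted p under 0.05, DESeq2 2, limma-voom 0), with a median of -0.24. Gad1, the enzyme that makes the inhibitory transmitter GABA, read 353, 344 and 362 CPM in Normoxic, 260, 286 and 313 CPM in Gel and 217, 242 and 247 CPM in PBS. By the 1.5-fold criterion Gad1 was near Normoxic (-0.30, interval -0.54 to -0.07), though each Gel value lay below each Normoxic value. Slc6a9, a glycine transporter, read 363, 386 and 367 CPM in Normoxic and 309, 267 and 268 CPM in Gel and met neither criterion (-0.40, adjusted p = 0.104). Ganglion cell genes had 1 call of 20, again Isl1, and a median of -0.17. Of 10 horizontal cell genes, with a median of -0.15, 1 was called and it was higher in Gel (Ndrg1, 0.51, adjusted p = 0.0456), a call that ended without any 1 Gel or Normoxic library, PBS 1 or PBS 2 (up to 0.257) and with the replicate block.

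Of 23 rod photoreceptor genes, 1 was called, 16 had an interval within 1.5-fold and the median log2 fold change was 0.11. The called rod gene was Nr2e3, the nuclear receptor that represses cone genes in rods, at 595, 613 and 652 CPM in Normoxic, 1074, 907 and 1087 CPM in Gel and 736, 844 and 1083 CPM in PBS (0.72 ± 0.15, edgeR adjusted p = 0.0405). Per kilobase of transcript it had the highest Gel level of all called genes, 457 FPKM against 279 FPKM in Normoxic. Its call ended without any 1 Gel or Normoxic library or PBS 2 (adjusted p up to 0.19). Of 15 cone genes, 0 passed in edgeR and 1 had an unadjusted p under 0.05, DESeq2 called 1 and limma-voom 0.

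Among the 139 genes back at the Normoxic level, the PBS difference was mostly small (median log2 fold change -0.44 in PBS and -0.23 in Gel). The 104 of them lower in PBS had medians of -0.47 in PBS and -0.26 in Gel, so part of the difference remained. A PBS difference over 1.5-fold was found in 35 of the 139 (17 higher, 18 lower in PBS). The rest were within 1.5-fold of Normoxic in PBS too, by the estimate. These 35 were picked by their distance from Normoxic in PBS and their nearness in Gel, so the gap between Gel and PBS follows from the choice and gets no test. The smallest Gel versus PBS adjusted p among them was 0.194. With a 2-fold in place of a 1.5-fold limit the 139 became 434, and without Normoxic 1, 2 or 3 they fell to 12, 5 and 8.

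Vgf, a secreted neuropeptide precursor of neurons, had the largest PBS difference of the set. It read 33, 38.1 and 53.5 CPM in Normoxic, 17.8, 19.9 and 14.4 CPM in PBS and 31.8, 43 and 45.6 CPM in Gel. Gel and Normoxic overlapped, and all PBS values were lower than both (Gel versus Normoxic log2 -0.05, interval -0.48 to 0.39, PBS versus Normoxic -1.25, edgeR adjusted p = 0.00499). The neuronal signalling genes Plcb1, a phospholipase C, and Gabrg3, a GABA receptor subunit, were also lower in PBS and in this set (PBS -0.90 and -0.84, Gel -0.23 and -0.13). Plcb1 read 28.5, 24.6 and 25.3 CPM in Normoxic, 12.6, 16.1 and 13.4 CPM in PBS and 19.8, 20.6 and 26.4 CPM in Gel. Over all 22 sterol and lipid synthesis genes the median was 0.006 in Gel and -0.26 in PBS. In PBS 4 of the 22 were called, all lower, and 2 of these 4 belong to this set. Of the 22, 18 were within 1.5-fold in Gel (81.8%, where 48.5% of all tested genes were). In Gel edgeR, DESeq2 and limma-voom called 0, and 2 had an unadjusted p under 0.05.

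Other genes of the set had been higher in PBS. Ccnd1, the cyclin that starts the cell cycle, read 22.3, 27.2 and 24.7 CPM in Normoxic, 44, 38 and 42.6 CPM in PBS and 22.4, 30.5 and 26.3 CPM in Gel (Gel log2 0.09, interval -0.20 to 0.39, PBS 0.75, edgeR adjusted p = 0.00824). Slc14a1, a urea transporter, read 16.7, 16.2 and 14.4 CPM in Normoxic, 36.1, 22 and 27.3 CPM in PBS and 14.4, 15.9 and 18 CPM in Gel (Gel 0.03, interval -0.35 to 0.42). For both, Gel and Normoxic overlapped and PBS lay above. Gnb3, a G protein subunit of cones and ON bipolar cells, read 457, 489 and 435 CPM in Normoxic, 853, 607 and 690 CPM in PBS and 551, 522 and 559 CPM in Gel, where Gel still lay above each Normoxic value (0.24, interval -0.05 to 0.53). Fam162a, a HIF-1 target, and Aebp1 and Nxph4 were also in the set (Gel 0.15, 0.08 and 0.05, PBS 0.84, 0.83 and 0.74).

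**Figure D4:**
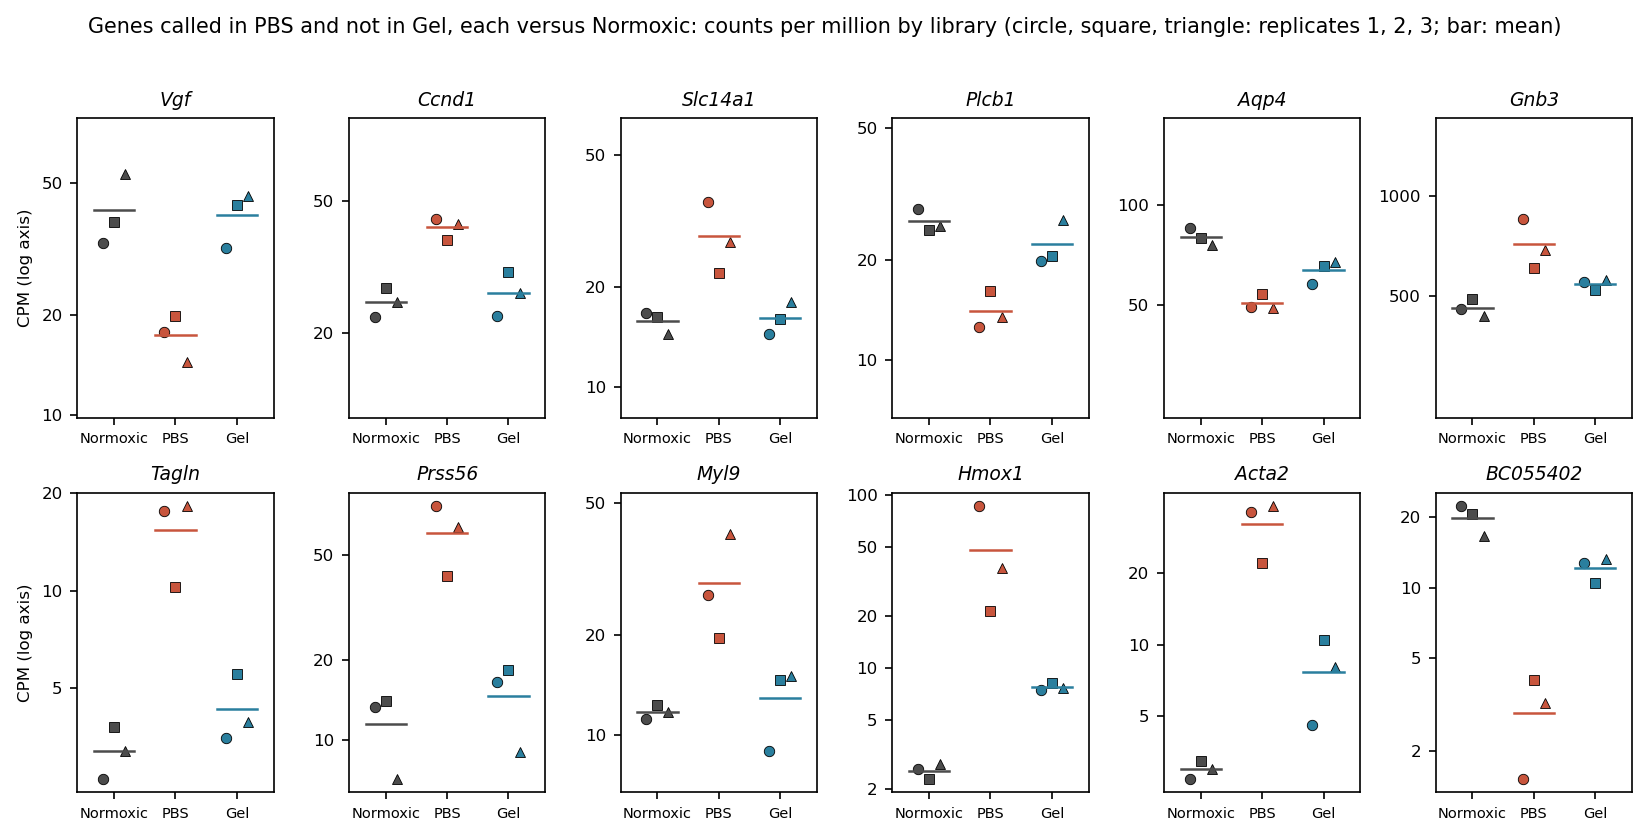
CPM on a log axis (y) for 12 genes called in PBS and not in Gel, each versus Normoxic, by group (x), 1 point per library and a bar at the group mean. The upper 6 met the 1.5-fold criterion in Gel. The lower 6 did not, as their intervals were wider or their Gel level lay between the groups.

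Several genes with the largest PBS differences lay between the groups or were too variable for the criterion. Hmox1, the heme-degrading enzyme induced by oxidative stress, read 2.58, 2.28 and 2.76 CPM in Normoxic, 85.7, 21.2 and 37.5 CPM in PBS and 7.39, 8.16 and 7.63 CPM in Gel. All Gel values were above Normoxic and below PBS, with neither difference called (Gel versus Normoxic log2 1.61 ± 0.42, edgeR adjusted p = 0.104, Gel versus PBS -2.64, adjusted p = 0.166). Over its alternatives the first of these p-values ran from 0.000982 to 0.341. Hmox1 was called in Gel versus Normoxic by DESeq2, without the filter on low counts and in the fit of only the 2 groups compared. It was also called without PBS 1, PBS 2 or PBS 3, but in none of the other alternatives. Prss56, a serine protease of Müller glia linked to eye growth, read 13.3, 14 and 7.13 CPM in Normoxic, 76.2, 41.6 and 63.6 CPM in PBS and 16.5, 18.4 and 9.01 CPM in Gel, overlapping Normoxic (0.35, interval -0.35 to 1.05). BC055402, an uncharacterised gene, had the smallest p in Gel versus PBS, and read 22.2, 20.7 and 16.6 CPM in Normoxic, 1.53, 4.04 and 3.22 CPM in PBS and 12.8, 10.5 and 13.3 CPM in Gel (Gel versus PBS 2.06, adjusted p = 0.117). Nupr1, a stress-induced nuclear protein, was called in Gel (1.37, adjusted p = 0.0359) at 5.51, 6.65 and 6.3 CPM, against 2.31, 2.58 and 2.23 CPM in Normoxic and 24.5, 10.8 and 18.6 CPM in PBS. The Nupr1 call ended without any 1 Gel or Normoxic library (adjusted p up to 0.156) and in limma-voom. Of 7 red blood cell genes, edgeR, DESeq2 and limma-voom called 0 in Gel, 0 had an unadjusted p under 0.05, and the median was -0.14 in Gel and 1.35 in PBS. Hba-a1, an alpha globin whose copy Hba-a2 may share its reads, read 50, 13.7 and 54.4 CPM in PBS and 7.8, 13.8 and 13 CPM in Gel.

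Of the 245 called genes, 29 were not called in PBS versus Normoxic, and 7 of these had an unadjusted PBS p over 0.05. All 29 differed from Normoxic in the same direction in PBS as in Gel. The 7 were picked by a call in Gel and a weak difference in PBS, so their gap between Gel and PBS follows in part from the choice. Egfr, the epidermal growth factor receptor, read 15.2, 16.1 and 15.3 CPM in Normoxic, 17.8, 20.8 and 17.1 CPM in PBS and 26, 24.9 and 28.9 CPM in Gel. Each Gel value lay above all the others (Gel versus Normoxic log2 0.78 ± 0.12, edgeR adjusted p = 0.0101, Gel versus PBS 0.52, adjusted p = 0.453). Dusp6, the phosphatase that switches off ERK and is itself induced by ERK signalling, was lower at 11.6, 17.3 and 17.3 CPM in Gel, against 25.5, 27.3 and 26.1 CPM in Normoxic and 23.4, 20.7 and 21.5 CPM in PBS (-0.77, adjusted p = 0.0369). Aplnr, the receptor for the vessel peptide apelin, read 3.05, 3.85 and 5.98 CPM in Normoxic, 11.3, 19.3 and 14 CPM in Gel and 3.37, 8.94 and 10 CPM in PBS (1.79, adjusted p = 0.0483). Phf13, a chromatin reader, was lower (-0.74, adjusted p = 0.0454). Leaving out 1 library ended each of these calls: Gel 3 or any Normoxic library for Egfr (adjusted p up to 0.0721), and 6 or more of the 9 libraries for Dusp6, Aplnr and Phf13 (up to 0.168, 0.223 and 0.195).

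Markers of neighbouring tissue varied between libraries. Of 16 pigment epithelium genes edgeR called 0 in Gel, 6 had an unadjusted p under 0.05, and DESeq2 called 3 and limma-voom 1. Lrat, the enzyme that esterifies vitamin A there, read 2.91, 1.54 and 0.493 CPM in Normoxic, 9.41, 11 and 5.74 CPM in Gel and 1.81, 1.62 and 3.77 CPM in PBS (log2 2.40, edgeR adjusted p = 0.0522), and Rpe65 read 5.76, 2.31 and 0.526 CPM in Normoxic and 13.5, 14.7 and 11.2 CPM in Gel (2.20, adjusted p = 0.113). The mean of the list ran from -0.66 to 0.56 in Normoxic and from 0.43 to 0.98 in Gel, and no defining marker was at 0. Of 11 measured lens genes edgeR and limma-voom called 0, DESeq2 called 1 lower, the fit of only the 2 groups compared called 1 higher, and 2 had an unadjusted p under 0.05. The lens list mean stood at -0.65, 1.74 and -1.09 in Normoxic 1, 2 and 3 and at 0.91, -0.82 and -0.22 in Gel 1, 2 and 3, and the Gel versus Normoxic median went from -0.81 to 0.70 without Normoxic 2. The part of such tissue in the results was not tested.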

How the data were processed

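Counts per gene came from 9 retina libraries, 3 per group, in the count table deposited by the authors, as whole numbers, not normalized. The submitters' processing notes name the build GRCm39 and the tools RSEM 1.3.1, Bowtie2 and DESeq2 1.4.5 without saying what each did. The FPKM values deposited by the authors equal the count over library total and gene length (relative spread at most 2.9e-10), so they hold no further measurement and served for levels compared between genes. Strand and counting rule are not given in the sources used here. Because GRCm39 differs from the build of the RefSeq promoters, coordinates are given only for the promoters.

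Genes were filtered with filterByExpr of edgeR 4.0.16 in R 4.3.3 (minimum count 10), which kept 65.1%. All 9 libraries entered 1 quasi-likelihood fit with TMM scaling and group as the only term (common dispersion 0.0312), with Benjamini-Hochberg adjustment of p over the kept genes and a threshold of 0.05. The SE is the log2 fold change over the square root of its F, and 95% intervals use it. A CPM of 1 rests on 29.3 to 35.7 counts. Replicates differed by more than counting noise, so none was merged. All libraries carry the same batch label. The analysis was tested on simulated data.

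The genes, gene lists and comparison were chosen with earlier results of these data known. Many lists share genes. Named genes followed a rule: the 12 largest increases and decreases called in Gel (mean of at least 1 CPM in the higher group, no gene models, no overlap), up to 4 members per list by smallest p and all members called where 5 or fewer, the 10 largest PBS differences among genes within 1.5-fold in Gel and among all genes called only in PBS, the 10 smallest p in Gel versus PBS, called genes with a PBS p over 0.05, and a panel of 20 genes, from which a subset is described. Some genes that the rule allows are not reported here. Outside it, A2m, A930033H14Rik, Arrdc2, Arrdc3, C1qa, C1qb, C1qc, Cd74, Col4a2, Cx3cr1, Fgf2, Gm29695, Hk2, Isg15, Ldha, Myl9, P2ry12, Pgk1, Slc2a1, Socs3, Stat3, Tmem119, Trem2, Txnip and Vim were chosen after their values were seen. Alternatives were limma-voom (limma 3.58.1), DESeq2 1.42.0, RLE size factors, a length correction, other filters, a 2-group fit, a replicate block, an adjusted p under 0.01, a 2-fold limit and leaving out each library.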

Additional observations from a re-analysis of the deposited data

How the results depend on the processing

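The direction of Gel versus Normoxic reversed under no alternative for the genes called in the main fit. Reversals were not counted for genes without a call, and some of those near 0 changed sign. Leaving out 1 library, Ldha ran from -0.23 to 0.059 and Vgf from -0.188 to 0.178 (log2). Over all genes tried here, called or not, 2920 values stayed on their side of the threshold, 405 lost a call and 125 gained one. Another 14, without a call in either fit, shifted by 1 SE or more. List medians moved by more than 1 SD of the Gel libraries in 40 of 400 settings. Limma-voom, RLE size factors and a mean of at least 1 CPM gave 185, 249 and 223 calls in Gel versus Normoxic, against 245.

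The counts depended on the tool and on single libraries. DESeq2 called 845 genes in Gel versus Normoxic (66.6% higher), 1936 in PBS versus Normoxic and 62 in Gel versus PBS, with 674 shared by both comparisons with Normoxic and 353 within 1.5-fold. A fit of only the 2 groups compared called 643 (66.6% higher), with 374 shared, 70 within 1.5-fold and 308 meeting neither criterion. The length correction gave 413 in Gel versus Normoxic, 3 in Gel versus PBS, 352 shared and 359 within 1.5-fold, and no filter gave 389, 24 and 336 shared. At an adjusted p under 0.01 there were 69 (91.3% higher), 400 in PBS versus Normoxic, 65 shared, 15 within 1.5-fold and 320 meeting neither. A 2-fold limit gave 434 in place of 139. Leaving out each library gave 47 (without Normoxic 2) to 735 (without PBS 3) in Gel versus Normoxic, of which 67.2% to 93.6% were higher, 455 to 1184 in PBS versus Normoxic, 0 to 12 in Gel versus PBS, 47 to 461 shared, 5 to 198 within 1.5-fold and 393 to 857 meeting neither. Causes were not tested.

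The replicate block gave 227 calls in Gel versus Normoxic (84.6% higher), 0 in Gel versus PBS and 86 within 1.5-fold. Same-numbered Gel and Normoxic libraries had deviations that correlated at -0.0822, -0.0394 and -0.0993, and Gel and PBS at 0.326, -0.209 and 0.362, so the numbers were not taken to pair samples, and not every library correlated best with its own number.

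With 3 libraries per group, the median interval reached 0.52 (log2) from the estimate for genes meeting neither criterion, so differences near 1.5-fold could not be settled for them.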

Other observations

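Heat shock genes varied within Gel. Of 15 measured, edgeR called 0 in Gel versus Normoxic, 12 had an unadjusted p under 0.05, DESeq2 called 4, limma-voom 0 and edgeR 7 without PBS 3. Hspa1b, an inducible HSP70 chaperone, read 360, 83.3 and 27.7 CPM in Gel 1, 2 and 3 and 23.4, 28.4 and 30.9 CPM in Normoxic. Hsph1, its nucleotide exchange factor, read 286, 116 and 74.4 CPM in Gel and 61.2, 53.8 and 74.8 CPM in Normoxic. Gel 1, the Gel library nearest to Normoxic on the first principal component, had the highest value of both.

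Cd8a, a T cell co-receptor chain also found on some other immune cells, was called higher in Gel (log2 fold change 1.87, edgeR adjusted p = 0.0231) at 2.08, 2.77 and 3.5 CPM, against 0.67, 1.02 and 0.591 CPM in Normoxic, a call that ended without Gel 2, Gel 3 or any 1 Normoxic library (adjusted p up to 0.126). Cd8a was called higher in PBS too. Of the 10 genes on the lymphocyte list, 2 passed the filter, and Cd8a was the 1 called. Of list genes that did not pass, Cd3d and Cd3g held 0 and 1 counts over all Gel libraries and 1 and 0 over Normoxic. Cd4 held 21 counts in Gel and 14 in Normoxic. Dlk1, an imprinted Notch ligand relative, read 0.067, 0.0308 and 0.197 CPM in Normoxic, 1.38, 1.28 and 1.3 CPM in Gel and 0.954, 0.827 and 1.38 CPM in PBS (Gel versus Normoxic 3.71 ± 0.52, adjusted p = 0.00797), and was not called without Normoxic 1 (adjusted p = 0.066, range over alternatives 1.03e-07 to 0.066). H19, an imprinted non-coding RNA chosen after its values were seen, read 1.07, 0.953 and 1.45 CPM in Normoxic, 4.74, 5.37 and 4.71 CPM in Gel and 14.4, 10.4 and 8.04 CPM in PBS. Its Gel values stood between the other groups without overlap (2.09 ± 0.26, adjusted p = 0.00378), and its call held in every alternative.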
